A study of Mus musculus with 12 samples.

Results

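The cytosolic ribosomal protein genes encode the proteins of the ribosome that translates nuclear-encoded mRNA, and they were followed here as a family of 84 genes among the 36047 genes measured in eosinophils of the mouse small intestine (SI). Members were chosen by symbol, as Rpl or Rps followed by a number, with the suffixes of known paralogs, together with Rplp0, Rplp1, Rplp2 and Rpsa. Of the 88 symbols that met this rule, 4 were pseudogenes in the GENCODE annotation (Rps4l, Rps12l1, Rpl6l and Rpl32l) and were left out. The 84 members comprised 52 genes of the large subunit and 32 of the small subunit, spread over 19 chromosomes. An average normalized count above 10, the minimum used by the study, was reached by 82 of them (50 large and 32 small), whereas the paralogs Rpl10l and Rpl39l remained below it.

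RNA was sequenced from 3 eosinophil subsets of female, wild type C57BL/6J mice: α4β7+, α4β7− CD22− and CD22+. No treatment was given, and the subsets shared genotype and strain, and were separated by surface phenotype. The study's BrdU labelling placed α4β7 on younger eosinophils and CD22 on a subset of older ones, with cells that carry neither marker in between. Separate immunofluorescence staining placed CD22 on part of the eosinophils in the villi. The comparisons thus ask how the transcripts of the translation machinery differ along this sequence from younger to older cells. There were 4 libraries per subset, each from cells of 2 pooled mice aged 6 to 12 wk, sorted as live CD45+ CD11b+ SiglecF+ MHCII− Ly6G− cells of the proximal lamina propria. Because every library started from the same 3 ng of total RNA, levels are relative to the other transcripts of a library, and less ribosomal protein mRNA per cell, more of other RNA per cell, and a different mixture of cells cannot be told apart.

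A mammalian ribosome contains a single copy of nearly all of its proteins, and the genes for these proteins are expressed at high and similar levels in almost all cells. Their mRNAs carry a 5′ terminal oligopyrimidine (TOP) sequence, an unbroken run of C and T bases that begins at the transcription start and places their translation under the control of the kinase mTORC1. Each of these genes has also given rise to many processed pseudogenes, intronless copies of the mRNA inserted elsewhere in the genome. A smaller number have expressed paralogs, such as Rpl22l1 for Rpl22, that encode a related protein.

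The sequence shared by the family was read from RefSeq for the build GRCm38.p6, in which 64 of the 84 members had 76 annotated transcription starts. A run of at least 8 consecutive C or T bases on the sense strand, reaching within 10 bases of the start, was present at 30 of these starts (39.5%) and at 4605 of all 32851 starts (14%). A start with C followed by 4 further pyrimidines was annotated at 13 of the 76 (17.1%) and at 823 of all starts (2.51%). The windows below hold 30 bases each, 15 before the annotated start and 15 from it, and show the genes on which the results turn, with the run in capitals. Rplp2 had the highest level per length, Rps19, Rpl10a, Rpl35, Rplp0 and Rps2 were among the members with the largest differences between subsets, Rps6 and Rps27 lay toward the other end of the ranking, and the paralogs Rpl22l1 and Rpl7l1 lay at that end in both later subsets.
Rplp2, chr7:141447636-141447665, plus strand: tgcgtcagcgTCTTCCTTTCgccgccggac
Rpl35, chr2:39005117-39005146, minus strand: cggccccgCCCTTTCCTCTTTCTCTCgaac
Rps6, chr4:86857353-86857382, minus strand: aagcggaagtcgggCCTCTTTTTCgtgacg
Rps27, chr3:90213634-90213663, minus strand: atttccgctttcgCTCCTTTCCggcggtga
Rpl22l1, chr3:28805493-28805522, plus strand: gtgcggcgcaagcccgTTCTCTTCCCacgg
Rps19, chr7:24884577-24884606, plus strand: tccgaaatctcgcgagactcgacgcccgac
Rpl10a, chr17:28328456-28328485, plus strand: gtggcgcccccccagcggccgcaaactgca
Rplp0, chr5:115559452-115559481, plus strand: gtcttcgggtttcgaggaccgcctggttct
Rps2, chr17:24720048-24720077, plus strand: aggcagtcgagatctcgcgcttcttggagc
Rpl7l1, chr17:46782642-46782671, minus strand: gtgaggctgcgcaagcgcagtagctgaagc
The run was present at the starts of Rpl35 and Rpl22l1. It was absent from the windows of Rplp0, Rps2 and Rpl7l1 and from all annotated starts of Rps19 (3) and Rpl10a (2), of which the first is shown. Annotated starts can lie some bases away from the ones used in eosinophils.

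The ribosomal protein genes took up a smaller part of the α4β7− CD22− and CD22+ libraries than of the α4β7+ libraries. Their summed normalized counts came to 1.87%, 2.18%, 1.82% and 1.81% of the total in the 4 α4β7+ libraries. The share was 1.44%, 1.35%, 1.13% and 1.39% in the α4β7− CD22− libraries and 1.07%, 0.894%, 1.26% and 1.29% in the CD22+ libraries. The α4β7+ libraries did not overlap with either of the other subsets, which overlapped with each other. The median log2(normalized count + 1) over the 82 genes tested was 11.48 ± 0.17 (SD, n = 4) in α4β7+, 10.96 ± 0.17 for α4β7− CD22− and 10.58 ± 0.23 for CD22+. Replicate 2 was the highest of the α4β7+ libraries, at 11.72, and replicate 2 was the lowest of the CD22+ libraries, at 10.26. In these 2 libraries the members moved together: 76 of 82 genes lay above their subset mean in the former, and 2 of 82 in the latter. After the subset means were subtracted, the median correlation between 2 members was 0.76 over the 12 libraries, which share their depth and scaling.

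**Figure D1:**
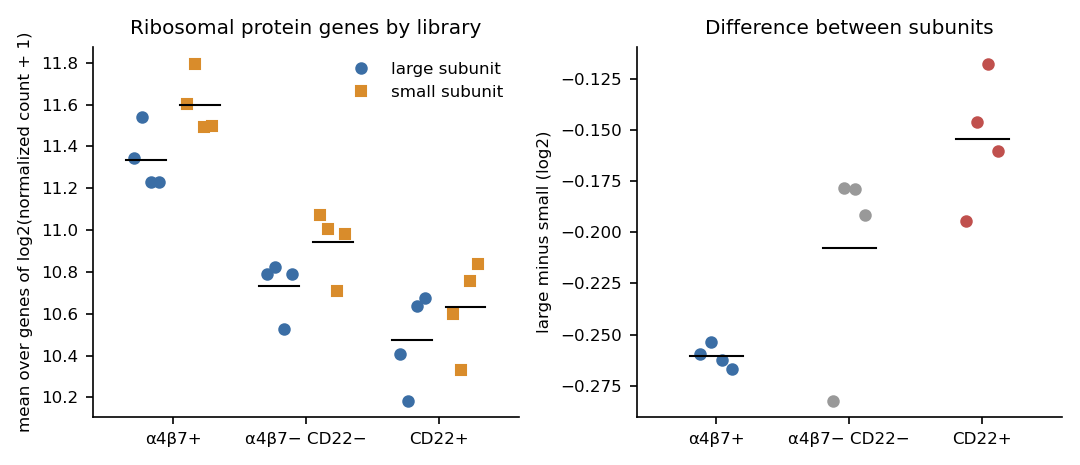
Left: the mean of log2(normalized count + 1) over the 50 large subunit genes (circles) and the 32 small subunit genes (squares) in each library, with black bars for the mean of a subset. Right: large minus small in each library. Both subunits were highest in the α4β7+ libraries, and the difference between subunits was smaller in CD22+ than in α4β7+.

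Gene by gene, most of the family was called lower in CD22+ and a smaller majority in α4β7− CD22−, both against α4β7+. Each gene was tested with limma on the log2(normalized count + 1) of all 12 libraries. It was called where subsets differed by 1.5-fold or more and p, adjusted over the 15249 genes tested by the Benjamini-Hochberg method, did not exceed 0.05. In CD22+ against α4β7+, 71 of the 82 genes were called lower and 0 higher, where 6.39% of all genes tested were called lower and 5.6% higher. In α4β7− CD22− against α4β7+, 47 were called lower and 0 higher, against 4.35% and 3.7% of all genes. All 82 estimates were below 0 in both comparisons, which share the α4β7+ libraries. The median log2 fold change over the members was −0.90 and −0.62, and the medians over all genes tested were 0.01 and 0.00. Libraries did not overlap for 75 of the 82 genes in CD22+ against α4β7+, with 11.8% of all genes entirely lower, and for 68 in α4β7− CD22− against α4β7+, with 9.8%. The other 1312 protein-coding genes with transcripts of at most 1000 bases had median log2 fold changes of −0.13 and −0.08, and 164 of them were called in CD22+, 41 of these higher. The part of transcript length in the difference was not tested. Without replicate 2 of α4β7+, 31 genes rather than 47 were called in α4β7− CD22−. In CD22+ the counts were 70 without that library and 67 without replicate 2 of CD22+. When libraries were scaled to their total without ribosomal protein genes, 31 and 63 genes were called in α4β7− CD22− and CD22+. This scaling moved the members' fold changes by 0.09 and 0.15 on the log2 scale and left 79 and 81 of the 82 estimates below 0.

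**Figure D2:**
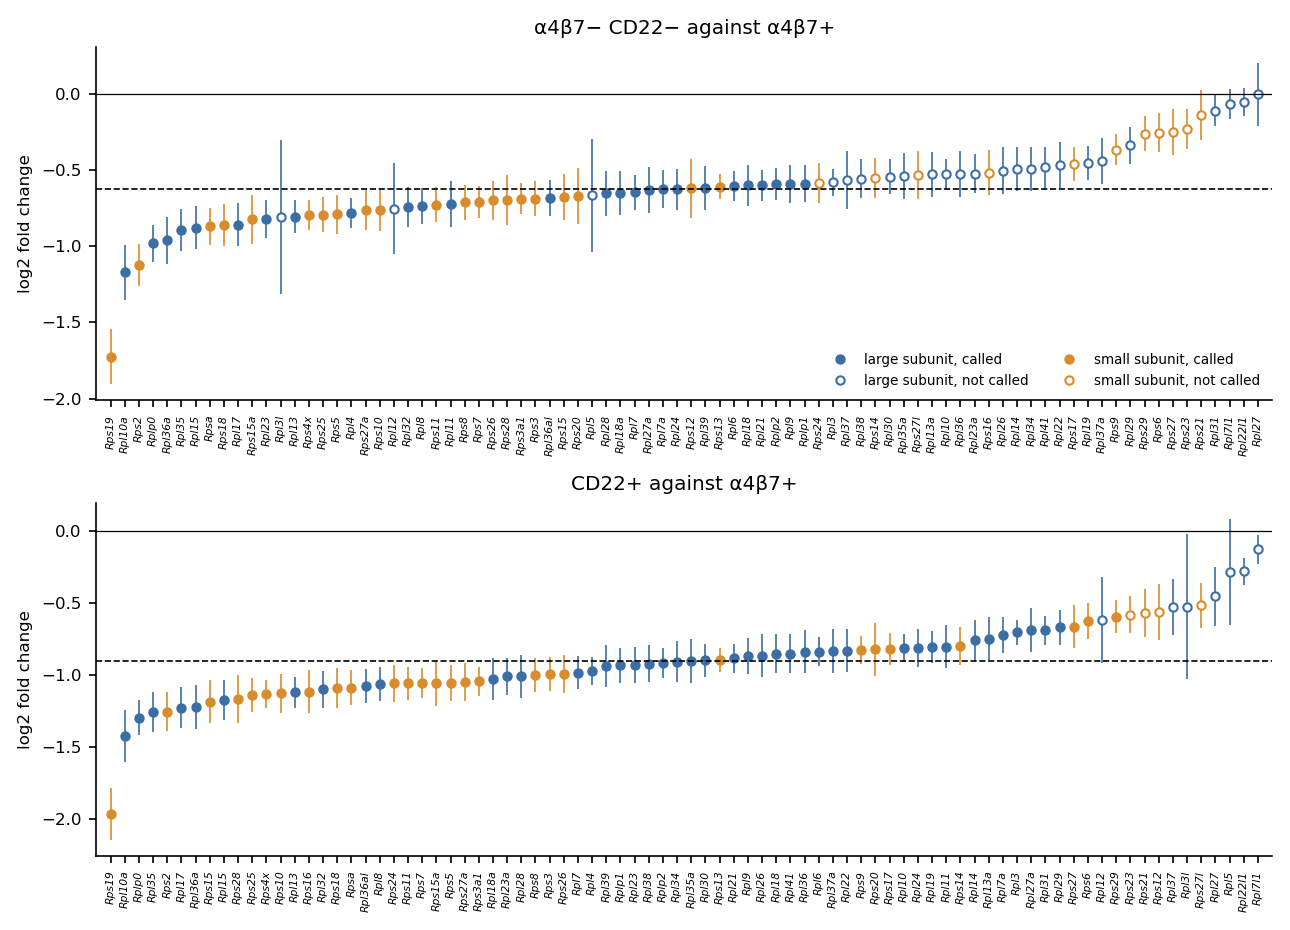
Log2 fold changes of the 82 genes tested, ranked, with standard errors, for α4β7− CD22− (top) and CD22+ (bottom) against α4β7+. Filled points were called; the dashed line marks the median of the members, −0.62 and −0.90. Rps19 stands below the rest in both panels, and Rpl7l1 and Rpl22l1 lie near 0.

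Between CD22+ and α4β7− CD22− the same family was shifted slightly further down, below what could be called for single genes. The median log2 fold change was −0.32, with 76 of 82 estimates below 0, and 0 members were called, where limma called 0.393% of all genes lower and 0.21% higher. An unadjusted p of at most 0.05 was found for 53 members, all lower in CD22+, compared with 6.02% of all genes tested. The adjusted p alone was passed by 2 members, against 0.82% of all genes lower: Rpl31 (log2 fold change −0.58 ± 0.10 SE, adjusted p = 0.0106) and Rps9 (−0.46 ± 0.10, adjusted p = 0.0385). Both were without overlap between libraries, as was Rps13, among 3.72% of all genes. Processed pseudogenes of Rpl31 held 54% of the summed count of gene and pseudogenes. With them added, the libraries overlapped and the log2 fold change of Rpl31 was −0.38 ± 0.11 (limma, adjusted p = 0.143). Without replicate 2 of CD22+ the median log2 fold change was −0.21. With 1 library left out, 1 member was called without replicate 3 of α4β7− CD22− or replicate 1 of CD22+, and 2 without replicate 4 of CD22+.

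The small subunit genes differed somewhat more than the large subunit genes. In CD22+ against α4β7+, the median log2 fold change was −1.05 over the 32 small subunit genes, of which 28 were called, and −0.87 over the 50 large subunit genes, of which 43 were called. In α4β7− CD22− the medians were −0.69 (21 of 32 called) and −0.60 (26 of 50 called). Expressed per library, the mean of the large subunit genes minus that of the small subunit genes was −0.26, −0.25, −0.26 and −0.27 log2 units in α4β7+. It was −0.28, −0.18, −0.18 and −0.19 in α4β7− CD22−, and −0.19, −0.15, −0.12 and −0.16 in CD22+. The CD22+ and α4β7+ libraries did not overlap in this difference, whereas replicate 1 of α4β7− CD22− lay with α4β7+ and apart from its own subset. This is a description of 2 sets of unequal make-up, since the large subunit list holds 4 of the 5 paralogs that were tested.

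Levels per length differed widely between members. Over all 12 libraries, the level was 12441 normalized counts per kb of transcript for Rplp2 (Ensembl ENSMUSG00000025508), which encodes a phosphoprotein of the stalk that recruits elongation factors. It was 11856 for Rpl41, the smallest ribosomal protein, while Rpl39, another very small protein, had 1587. It was 9810 for Rpl23a, 9374 for Rps9 and 8380 for Rps27. At the other end, the paralogs Rpl3l and Rps27l had 7.33 and 314 normalized counts per kb, and Rpl10l and Rpl39l, known mainly from testis, had 1.54 and 3.27. Rpl10l was listed at 2.15, 2.25, 5.56 and 1.15 normalized counts in the α4β7+ libraries, at 2.04, 3.64, 0 and 1.03 in α4β7− CD22−, and at 0, 0, 0 and 1.03 in CD22+. Rpl39l was at 0 in 6 of the 12 libraries and at most 2.52 in the others, apart from 12.6 in replicate 4 of α4β7− CD22−. The most frequent low value of a library, close to the value of 1 estimated read, was 0.852 to 1.16, so these 2 paralogs rest on few reads. Rpl3l, a paralog known from striated muscle, lay just inside the limit for testing with an average of 10.1.

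Rps19 showed the largest difference of the family. Rps19 (chromosome 7, 24884371 to 24889806, plus strand, GRCm38, 6 exons) encodes a protein of the small subunit head that is needed for pre-rRNA processing and is the gene most often mutated in Diamond-Blackfan anemia. Its normalized counts were 3169, 4273, 2228 and 2741 for the α4β7+ libraries, 882, 970, 781 and 1037 for α4β7− CD22−, and 748, 582, 862 and 938 for CD22+. Each of the α4β7+ libraries lay above every other library, with a wide gap between 1037 and 2228. The log2 fold change was −1.72 ± 0.18 (SE) for α4β7− CD22− (limma, adjusted p = 1.36e-05) and −1.97 ± 0.18 for CD22+ (adjusted p = 1.62e-06). CD22+ and α4β7− CD22− overlapped, at a log2 fold change of −0.24 ± 0.18 (adjusted p = 0.765).

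Rpl10a, Rplp0 and Rps2 were near Rps19 in the ranking of both comparisons, although in CD22+ Rpl35 (log2 fold change −1.26 ± 0.14) came before Rps2. Rpl10a, a protein of the L1 stalk through which spent tRNA leaves, was at 1319, 1747, 1098 and 1507 normalized counts in α4β7+. It was at 432, 710, 618 and 781 in α4β7− CD22− and at 537, 419, 581 and 564 in CD22+, with no overlap with α4β7+. The log2 fold change was −1.17 ± 0.18 for α4β7− CD22− (adjusted p = 0.000439) and −1.42 ± 0.18 for CD22+ (adjusted p = 4.04e-05). Processed pseudogenes of Rpl10a held 37.3% of the summed count of gene and pseudogenes. With them added, the log2 fold changes were −1.05 and −1.38. Rplp0, the base of the stalk, averaged 9824 ± 1284 (SD) for α4β7+, 4981 ± 633 for α4β7− CD22− and 4010 ± 602 for CD22+, a log2 fold change of −0.98 ± 0.12 and −1.30 ± 0.12 (adjusted p = 6.73e-05 and 1.97e-06). Rps2, which lies at the entry of the mRNA channel, averaged 4446 ± 412, 2039 ± 159 and 1898 ± 446, a log2 fold change of −1.12 ± 0.14 and −1.25 ± 0.14 (adjusted p = 5.04e-05 and 8.15e-06). The 2 other proteins of the stalk differed by less than Rplp0, by −0.93 ± 0.12 for Rplp1 and −0.92 ± 0.11 for Rplp2 in CD22+ against α4β7+. All 3 stalk genes were called in both comparisons.

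To ask which members departed from the family rather than from 0, each library was centred on its own median over the members and the model was fitted again. Centring removed 0.53 log2 units in α4β7− CD22− and 0.90 in CD22+, the former being less than the median of the fold changes, and a member was said to depart at an adjusted p of at most 0.05 over all genes. In CD22+ against α4β7+, 13 members departed, 7 below and 6 above the family, where 71.9% of all genes tested did. In α4β7− CD22− against α4β7+, 15 departed, 10 below and 5 above, where 43.2% of all genes did. With libraries centred on the mean of the members in place of the median, 15 departed there as well, but 5 below and 10 above. The shares of all genes are large because centring on a family with lower values moves the other genes up. The adjustment over all genes is therefore lenient for the members, and no adjustment was made within the family alone. There were 0 departures between CD22+ and α4β7− CD22−, where limma called 0.82% of all genes. Relative to the family, Rps19 had a log2 fold change of −1.20 in α4β7− CD22− and −1.06 in CD22+ (adjusted p = 2.19e-05 and 1.44e-05). Rpl7l1 lay above it by 0.46 and 0.78 (adjusted p = 0.0215 and 0.000289), and Rpl22l1 by 0.47 and 0.62 (adjusted p = 0.0308 and 0.00322). With a replicate block in the model, neither paralog departed in α4β7− CD22−, where 5 members did, 5 below and 0 above, while both did in CD22+, where 6 did, 4 below and 2 above. These counts also moved with single libraries. In α4β7− CD22− they were 7 and 5 without replicates 1 and 2 of α4β7+, and 9, 8, 7 and 8 without replicates 1 to 4 of α4β7− CD22−. In CD22+ the count was 8 without replicate 1 of α4β7+ and 8 without replicate 1 of CD22+. Over the 21 alternative settings, Rps19 and Rplp0 departed in all 21 in both comparisons, Rpl10a in 21 and 20, Rps2 in 21 and 18, and Rpl7l1 and Rpl22l1 in 16 and 21. Rpl35 departed in 13 and 20 of these settings, Rpl17 in 11 and 16, and Rps29 in 3 and 17.

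**Figure D3:**
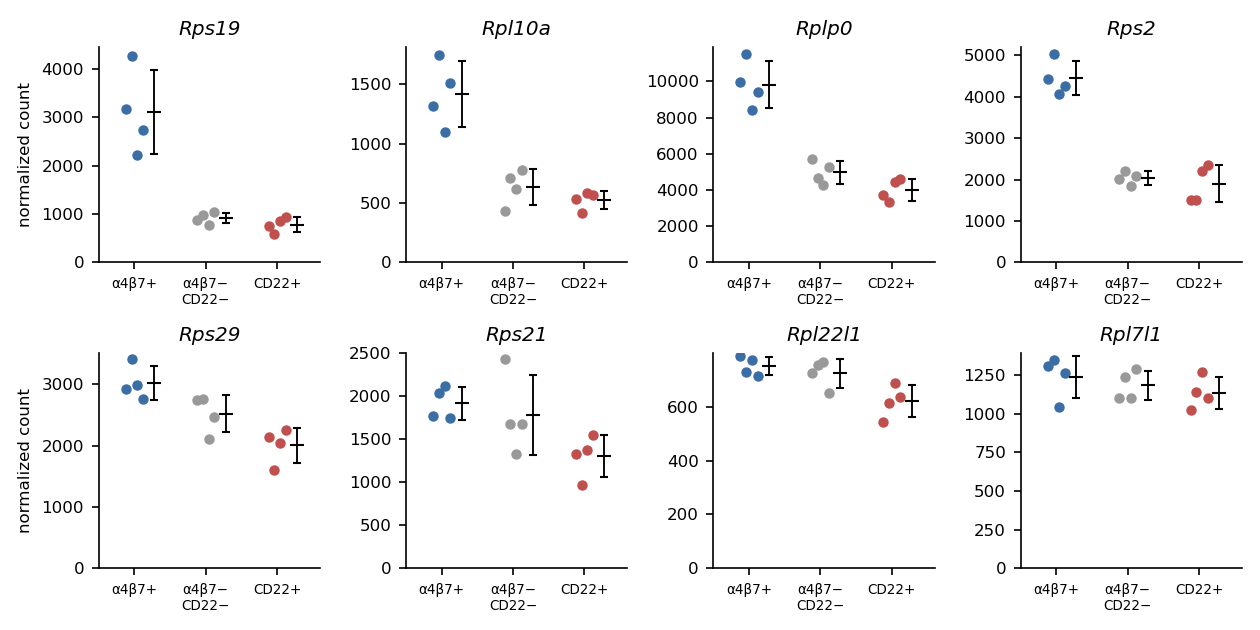
Normalized counts of 8 members in each library (points), with the mean and SD of a subset beside them (black, n = 4); each axis starts at 0. Rps19, Rpl10a, Rplp0 and Rps2 were without overlap between α4β7+ and the other subsets, whereas Rpl7l1 overlapped in all 3 subsets and Rps21, Rps29 and Rpl22l1 overlapped between α4β7+ and α4β7− CD22−.

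Among the members that were not called in CD22+ against α4β7+, 6 of 11 had processed pseudogenes with many reads and were called once these were counted with them. These were Rpl5, Rpl12, Rpl27, Rpl37, Rps12 and Rps23. Copies were defined as pseudogenes whose transcript matched a member at an identity of at least 90% over at least 50% of the shorter sequence. At least 1 copy was in the table for 81 of the 84 members, and 93 of the 1110 copies had an average normalized count above 10. Copies held over 10% of the summed count of gene and copies for 21 members and over 50% for 8, led by Rpl12 (80%), Rps23 (75.7%) and Rpl27a (66.6%). Of the 20 tested members above 10%, 14 were called in CD22+, and of the 62 others 57. Since the reads of a gene and of a near-identical copy are divided by estimation, the counts of these members are uncertain. In the α4β7− CD22− libraries Rpl5, a protein that carries 5S rRNA into the large subunit, was at 814, 4327, 2052 and 2442 normalized counts, and its copies were at 4770, 3422, 3292 and 4083. In this subset the library with the lowest count of the gene had the highest count of its copies, whereas in CD22+ the gene (2129, 2200.5, 3350 and 3238) and its copies (2667, 2198, 3002 and 2747) were highest in the same library.

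The copies of these genes were lower in CD22+ than in α4β7+ as well. For Rpl5, the copy with the most reads, Gm15500, had a mean normalized count of 6674 ± 383 for α4β7+, 3878 ± 679 for α4β7− CD22− and 2642 ± 333 for CD22+ (log2 fold change in CD22+ −1.34 ± 0.12, adjusted p = 8.81e-07). Rps12-ps3, the leading copy of Rps12, had a log2 fold change of −1.34 ± 0.22 (adjusted p = 0.000432), and Rps6-ps4, that of Rps6, one of −1.32 ± 0.12 (adjusted p = 1.15e-06). Because of this pattern, the copies' counts were added to each member in a further fit, an alternative chosen after the data had been seen. As the leading copies were lower themselves, calls gained by adding them largely restate that difference. In this fit, 77 of the 82 genes were called lower in CD22+ and 50 in α4β7− CD22−. Of all 15156 genes tested in it, 1804 and 1213 were called in either direction. In the latter 6 were gained, and 3 called without the copies (Rpl9, Rpl21 and Rpl27a) were lost. Rpl5 with its copies had a log2 fold change of −0.91 in CD22+ (adjusted p = 0.000131), compared with −0.28 ± 0.37 for the gene alone (adjusted p = 0.656). Rpl12 moved from −0.62 to −1.09, Rps12 from −0.56 to −1.09, Rpl27 from −0.45 to −0.83, Rpl37 from −0.53 to −0.70 and Rps23 from −0.58 to −0.70. Rps6, the S6 kinase substrate of the small subunit, was called in both fits and moved from −0.63 to −1.02. The SD of the fold changes over the members was 0.27 before and 0.24 after this step in CD22+, and 0.25 and 0.23 in α4β7− CD22−.

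**Figure D4:**
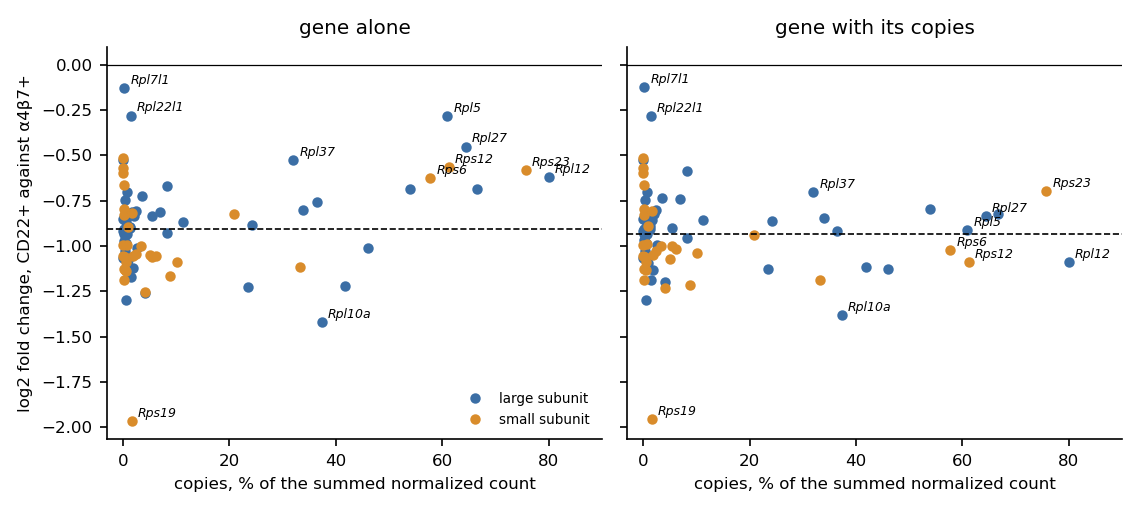
Log2 fold change of the 82 genes in CD22+ against α4β7+ plotted on the share of the summed normalized count held by their pseudogene copies, for the gene alone (left) and with its copies added (right); dashed lines are the medians of the members. Rpl5, Rpl27, Rps12, Rpl12 and Rps6 lay above the dashed line on the left and came closer to it or crossed it on the right, whereas Rpl7l1, Rpl22l1 and Rps19 stayed where they were.

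The other 5 members that were not called in CD22+ remained so with the copies added, namely Rps21, Rps27l, Rpl3l, Rpl22l1 and Rpl7l1. Rps21 was at 1765, 2043, 2117 and 1742 normalized counts in the α4β7+ libraries, 2429, 1672, 1325 and 1681 in those of α4β7− CD22−, and 1333, 968, 1377 and 1549 in those of CD22+. Replicate 1 of α4β7− CD22− was the highest of all libraries, and CD22+ lay below α4β7+ without overlap, by a log2 difference of −0.57 ± 0.17 (adjusted p = 0.0248) that missed the limit of 1.5-fold. Of the 13 members that departed in CD22+, 8 also departed with the copies added: Rps19, Rpl10a, Rplp0 and Rps2 below the family, and Rps29, Rps27l, Rpl22l1 and Rpl7l1 above it. In α4β7− CD22− this held for 7 of 15, the same 4 below and Rps21, Rpl22l1 and Rpl7l1 above. A further 3 members in CD22+ and 4 in α4β7− CD22− departed only with the copies added. Rps29, a small zinc-binding protein, was nonetheless called lower in CD22+, at a log2 fold change of −0.60 ± 0.11 (adjusted p = 0.00156).

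Paralogs and their canonical genes could be told apart by sequence, since none of 4 pairs of the large subunit (Rpl3l, Rpl7l1, Rpl22l1 and Rpl36al) or Rps27l and Rps27 shared a 31-base word and Rps4l shared 8 with Rps4x. Rpl7l1 (chromosome 17, 46773907 to 46782672, minus strand, 6 exons), whose product acts in the assembly of the large subunit, was at 1306, 1347, 1044 and 1261 normalized counts in the α4β7+ libraries, 1103, 1236, 1103 and 1287 in those of α4β7− CD22−, and 1024, 1139, 1269 and 1099 in those of CD22+. The 3 subsets overlapped, and the log2 fold change in CD22+ was −0.13 ± 0.10 (adjusted p = 0.422). Rpl7 ranged from 5773 to 7263 over the α4β7+ libraries, from 3540 to 4770 over α4β7− CD22− and from 2738 to 3748 over CD22+, and was called lower in both other subsets. The log2 ratio of Rpl7l1 to Rpl7 was −2.38 ± 0.09 (SD) in α4β7+, −1.80 ± 0.21 for α4β7− CD22− and −1.52 ± 0.21 for CD22+, without overlap between α4β7+ and the others. The ratio was higher by 0.58 and 0.86 log2 units (exact permutation test, two-sided, p = 0.0286 in both, adjusted p = 0.103 over 18 tests).

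Rpl22l1 (chromosome 3, 28805436 to 28807424, plus strand, 4 exons), whose mRNA is known to be repressed by the Rpl22 protein, was at 787, 730, 773 and 713 normalized counts in the α4β7+ libraries, 725, 754, 766 and 649 in those of α4β7− CD22−, and 543, 615, 687 and 635 in those of CD22+. CD22+ was below α4β7+ without overlap, but by a log2 fold change of only −0.28 ± 0.09 (adjusted p = 0.0454), while Rpl22 had −0.83 ± 0.15 (adjusted p = 0.00102). The log2 ratio of Rpl22l1 to Rpl22 was −1.59 ± 0.15 in α4β7+, −1.18 ± 0.31 for α4β7− CD22− and −1.04 ± 0.32 for CD22+, a difference of 0.55 in CD22+ (exact permutation p = 0.0286, adjusted p = 0.103) and of 0.41 in α4β7− CD22− (exact p = 0.0571, adjusted p = 0.129). Rpl22l1 thus made up 24.9% of the counts of the pair in α4β7+ and 32.4% in CD22+.

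Of the remaining pairs, Rps4l to Rps4x differed in the same direction as these, and for the other pairs CD22+ and α4β7+ overlapped. Rpl36al, which encodes a protein nearly identical to Rpl36a, was at 1094, 684 and 519 mean normalized counts in the 3 subsets and Rpl36a at 844, 434 and 368, an order that turns once the copies of Rpl36a are added (1410, 760.5 and 659.9). Rpl36al and Rpl36a were called lower in both later subsets, with log2 fold changes of −1.08 ± 0.12 and −1.22 ± 0.15 in CD22+. The ratio differed by 0.14 ± 0.12 (SE) between CD22+ and α4β7+ (exact permutation p = 0.257). Rps27l, a p53 target, lay at 4.41% to 5.81% of the counts of its pair with Rps27, and its ratio was 0.43 higher in CD22+ than in α4β7− CD22− (exact p = 0.0286, adjusted p = 0.103) but differed by 0.15 ± 0.15 from α4β7+ (exact p = 0.400). For Rps4l, a transcribed pseudogene and no member, the ratio to Rps4x was 0.66 higher in CD22+ than in α4β7+, without overlap (exact p = 0.0286, adjusted p = 0.103). Rpl3l made up 0.237% to 0.321% of the counts of its pair with Rpl3. Of the 18 exact tests over 6 pairs, 5 reached 0.0286, the smallest p that 4 against 4 libraries allow, and 0 passed an adjusted p of 0.05.

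**Figure D5:**
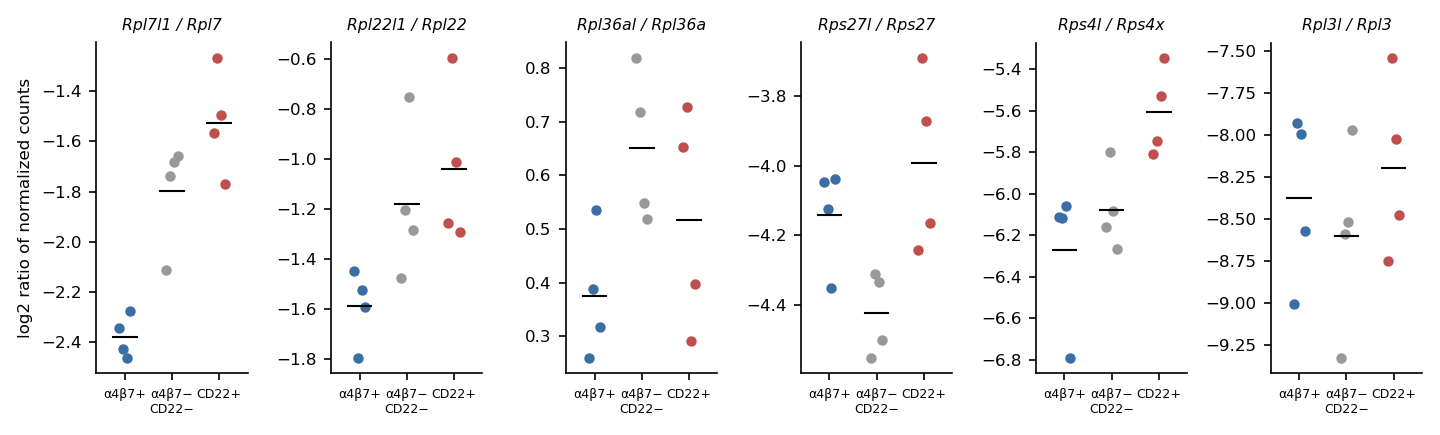
Log2 ratio of paralog to canonical gene in each library for 6 pairs, on log2(normalized count + 1); bars are subset means and each panel has its own axis. For Rpl7l1, Rpl22l1 and Rps4l the 4 CD22+ libraries all lay above the 4 α4β7+ libraries, and Rpl3l, with about 10 normalized counts, scattered the most.

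Further members with well-described roles, inside the ribosome or outside it, were called lower in CD22+ like most of the family. Rpl11, which joins Rpl5 and 5S rRNA in a particle that also binds Mdm2, had a log2 fold change of −0.80 ± 0.15 in CD22+ (adjusted p = 0.00126) and −0.72 ± 0.15 in α4β7− CD22−. Rps3, which forms the entry of the mRNA channel, averaged 17651 ± 2027 normalized counts in α4β7+ and 8906 ± 1388 in CD22+, a log2 fold change of −0.99 ± 0.12 (adjusted p = 2.09e-05). Rpl10, the last protein to join the large subunit, had −0.81 ± 0.10, Rpl13a −0.75 ± 0.15, Rps26 −0.99 ± 0.13, Rpsa (the laminin receptor) −1.09 ± 0.12, and Rps27a, a fusion of a ribosomal protein with ubiquitin, −1.05 ± 0.13. All were called. Rpl13, a protein of the large subunit, was at 4837, 5248, 4534 and 4659 normalized counts in α4β7+ and at 2248, 1724, 2508 and 2466 in CD22+. It was lower by a log2 fold change of −1.12 ± 0.11 in CD22+ (adjusted p = 2.88e-06) and −0.81 ± 0.11 in α4β7− CD22− (adjusted p = 0.00014).

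Other transcripts with a TOP sequence were mostly lower too, and part of them were called. Of 21 further TOP mRNAs, 13 were called lower in CD22+ and 0 higher, against 6.39% and 5.6% of all genes, with a median log2 fold change of −0.67. In α4β7− CD22− 5 were called lower and 0 higher, against 4.35% and 3.7% of all genes (median −0.44). Estimates were below 0 for 20 of the 21 in both comparisons. An unadjusted p of at most 0.05 was found for 21 of them in CD22+, against 32% of all genes. In α4β7− CD22− it was found for 20, against 27.1%. Nap1l1, a histone chaperone, differed the other way, by 0.39 ± 0.08 in CD22+ (adjusted p = 0.00412) and 0.35 ± 0.08 in α4β7− CD22− (adjusted p = 0.0122), under the limit of 1.5-fold. The largest in CD22+ were Rack1, a scaffold on the small subunit (−1.22 ± 0.15, adjusted p = 2.81e-05), Fau, a fusion that holds the small subunit protein eS30 (−1.01 ± 0.15, adjusted p = 0.000184), and Eef1b2, an elongation factor subunit (−0.92 ± 0.12, adjusted p = 4.91e-05). In α4β7− CD22− Rack1 (−0.99 ± 0.15) was followed by the elongation factor genes Eef1g (−0.89 ± 0.14) and Eef1a1 (−0.69 ± 0.09). Of 54 ribosome assembly genes, 11 were called lower and 2 higher in CD22+ (median −0.21), and 14 were called lower and 0 higher in α4β7− CD22− (median −0.28). These counts are to be read against the same shares of all genes called. Estimates were below 0 for 46 of the 54 in CD22+ and for 43 in α4β7− CD22−. Noc2l, a nucleolar protein that also binds p53, had −2.08 ± 0.20 in CD22+ (adjusted p = 2.96e-06), Grwd1, a chaperone of Rpl3, −1.44 ± 0.34 (adjusted p = 0.00704) and the rRNA methyltransferase Fbl −0.97 ± 0.13 (adjusted p = 5.7e-05). None of the 15 RNA polymerase I genes was called by limma in any comparison, with medians of −0.08 in α4β7− CD22− and −0.15 in CD22+ and 3 genes at an unadjusted p of at most 0.05 in each of the 2, where 27.1% and 32% of all genes tested were.

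Of 40 genes of mTORC1 and translation control, 1 was called lower and 1 higher in CD22+, where 6.39% and 5.6% of all genes were, with a median of 0.01 over members that went both ways. An unadjusted p of at most 0.05 was found for 15 of them in CD22+ and for 11 in α4β7− CD22−, near the same shares of all genes (32% and 27.1%). The gene called lower was Myc, a transcription factor that drives ribosome synthesis, with a mean normalized count of 649 ± 126 for α4β7+, 42.6 ± 9.77 for α4β7− CD22− and 42.3 ± 20.2 for CD22+ (log2 fold change in CD22+ −3.99 ± 0.28, adjusted p = 9.75e-08), and the gene called higher was Castor1, an arginine sensor (0.70 ± 0.23, adjusted p = 0.0393). Of 78 mitochondrial ribosomal protein genes, whose products form a separate ribosome, 5 were called lower and 1 higher in CD22+, with a median of −0.14, so the share called lower was near the 6.39% of all genes. The largest calls were Mrps18b (−0.80 ± 0.21), Mrps33 (−0.78 ± 0.16) and Mrpl49 (0.93 ± 0.19, adjusted p = 0.00267). Of 4 genes for ribosome dormancy factors, 0 were called by limma in CD22+ and 1 was called lower in α4β7− CD22−, with medians of −0.36 and −0.25. An unadjusted p of at most 0.05 was found for 4 and 2, in a list too short to set against the shares of all genes (32% and 27.1%).

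The libraries carried the markers of the sorted cells along with transcripts of other cell types, and the eosinophil markers moved with the same subsets. All 8 eosinophil markers had an average above 10, and their summed normalized count was 64160 to 78913 over the α4β7+ libraries, 45026 to 51006 over α4β7− CD22− and 32970 to 35053 over CD22+. Of the 8, 6 were called lower in CD22+ against α4β7+, where 6.39% of all genes were called lower and 5.6% higher. Of 7 monocyte and macrophage markers, 1 was called higher and 0 lower, to be read against the same shares, with sums between 8327 and 10379 in all libraries. Transcripts of B and plasma cells summed to 10710 to 35860 and those of epithelium to 859 to 5514, with overlap between the subsets and 0 markers called by limma in CD22+ against α4β7+ (0 at an unadjusted p of at most 0.05). Neutrophil markers summed to 64.9 to 79.6 in α4β7+ and 18.2 to 23.6 in CD22+. Of the 5 listed, 2 averaged above 10 and 1 was at 0 in all libraries. In CD22+ against α4β7+, 1 was called lower and 2 had an unadjusted p of at most 0.05. T cell, Paneth cell, mast cell, erythroid and stromal markers had 0 called in that comparison, with 1 Paneth cell and 1 mast cell marker at an unadjusted p of at most 0.05. Only 1 of the 4 mast cell markers averaged above 10. In α4β7− CD22− against α4β7+, 4 eosinophil and 2 T cell markers were called lower and 1 monocyte and macrophage marker higher. Of all genes, 4.35% were called lower and 3.7% higher there. Fibroblast and endothelial markers summed to 12225 to 13592 in α4β7− CD22−, above the 10213 to 11664 in α4β7+ and the 11199 to 11830 in CD22+ without overlap, with 0 called by limma and 1 at an unadjusted p of at most 0.05. The part of the B and plasma cell, fibroblast and endothelial, T cell, eosinophil and neutrophil markers in the difference of the ribosomal protein genes was not tested. Total normalized counts were 14286474 to 16915755 per library and were higher in α4β7+ than in the other subsets.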

How the data were processed

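RNA of 12 libraries was analysed from the deposited signal values. Per the labels and the paper's methods, the authors trimmed reads with Trimmomatic 0.39, pseudoaligned them to mm10 with kallisto 0.46.1, which divides reads among matching transcripts by estimation, and normalized the counts with DESeq2 1.38.2. The values are not whole reads: 30.8% to 64.6% of the low values of a library lay within 0.05 of a multiple of its most frequent low value. The 15249 genes averaging more than 10 were tested in R 4.3.3 with limma 3.58.1 and its mean-variance trend, after log2(value + 1); p was adjusted over them by the Benjamini-Hochberg method. A model for raw counts was not used. Log2 fold changes of low genes are understated. The script was tested on simulated data. Paralog ratios used exact permutation tests, adjusted over 18 tests. Pseudogene copies were found with BLAST 2.17.0. Genes were matched by Ensembl identifier to GENCODE (GRCm38); transcript length is that of the shortest principal coding transcript. No column of values remained without a library.

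Members and gene lists were chosen with earlier results of these data known. Genes named are the 5 most negative and 5 most positive estimates of a comparison, members not tested, not called in CD22+ or departing (10 largest), paralog pairs, the 5 highest levels, 14 genes with known roles and, of each list, the 3 largest calls. Rps13, Rps29, Rpl27a, Rpl39, Nap1l1 and the copies were named after their values were seen. Libraries with the same replicate number correlated by 0.14 to 0.20 after removal of subset means between CD22+ and α4β7− CD22−, each best with its own number, which pairs them by that measure, although no source states shared mice; between the other subsets not all did. The alternatives tried were pseudocounts of 0.1 and 10, no filter or 50, 3 other scalings, no trend, 2 subsets, the adjusted p alone, the replicate block, each library left out, and the copies added.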

Additional observations from a re-analysis of the deposited data

Results flagged for a closer look

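In 153 groups of 4 library values given here, 5 held a library far from the other 3 by Dixon's criterion, which chance alone meets in about 1 group in 20. Rpl3 and Rpl35 were high in replicate 2 of α4β7+, at 5279 and 2324 normalized counts, in the library with the highest ribosomal protein median. Rpl23a was low in replicate 3 of α4β7− CD22−, at 4343 normalized counts, in the library with the lowest median of its subset. The difference between large and small subunit genes was −0.28 log2 units in replicate 1 of α4β7− CD22−, apart from the other 3 libraries of that subset. The log2 ratio of Rps4l to Rps4x was −6.79 in replicate 4 of α4β7+, a value that rests on a low count of Rps4l.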

How the results depend on the processing

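The direction of the family's median did not change under any alternative tried, and 0 of the single values given changed direction past a threshold. The number of ribosomal protein genes called in α4β7− CD22− against α4β7+ was 47, and 31 with scaling to the library total without ribosomal protein genes; with 1 library left out it was 31 to 54. In CD22+ against α4β7+ it was 71, 63 with that scaling, and 67 to 74 with 1 library left out. Between CD22+ and α4β7− CD22− it was 0, 2 with the adjusted p alone, and 0 to 2 with 1 library left out. The number of members that departed from the family's median was less stable: in α4β7− CD22− it was 15, 9 without the filter on low values, and 5 to 22 with 1 library left out; in CD22+ it was 13, 8 with the 2 subsets alone in the model, and 8 to 16 with 1 library left out; the cause was not tested. With a replicate block in the model, 46, 71 and 0 members were called in the 3 comparisons, and 5 (5 below, 0 above), 6 and 0 departed from the median; pairing changed no call between CD22+ and α4β7− CD22−. For the paralog ratios, 0 of the tests passed an adjusted p of 0.05 with either pseudocount; exchanging signs within 4 pairs cannot reach 0.05. Depth behind the values is known only from the normalized counts, the copies make the counts of 21 members uncertain, and 4 libraries per subset limit single paralog tests.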
